A study of Oryza sativa with 6 samples.

Results

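Gibberellins are diterpenoid hormones that promote growth, and their level in plant tissue is set by the balance of synthesis and deactivation. Oxidases of the later synthesis steps make the active hormone, while gibberellin 2-oxidases inactivate it or its precursors. The active hormone binds the receptor GID1, which then binds the DELLA repressor SLR1, and SLR1 is marked for degradation through the F-box protein GID2. In rice, loss of the synthesis enzymes or of the receptor dwarfs the plant, and loss of SLR1 gives slender growth without the hormone.

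The 10 genes described here were chosen by locus: KAO, GA20ox1, GA20ox2 and GA3ox2 for synthesis, GA2ox1, GA2ox3 and GA2ox6 for deactivation, and GID1, SLR1 and GID2 for perception and signalling. They carried 30 of the 42418 probes and were 10 of the 30218 genes on the array. Of these genes 9, with 27 probes, passed the filter on dim probes, as did 23490 genes in all. The gene names are those of the selection, because none of the loci was annotated in the reference table used here. That selection was made with earlier results of these data known, so counts among its members are descriptive. Chromosomes are read from the locus identifiers, and start and end positions were not analysed here.

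Roots of 6-day seedlings of Oryza sativa cv. TN-67 were exposed either to 50 µM Cr(VI), the toxic hexavalent form of chromium, or to water. The short exposure pooled roots treated for 1 h and for 3 h, so neither time can be read alone, and the long exposure lasted 24 h. Each exposure had 3 arrays, and every array paired treated RNA in Cy5 with water-control RNA in Cy3, with no dye swap. A dye effect specific to a probe therefore cannot be told apart from an effect of chromium in any single ratio. The labels call the arrays biological replicates and do not say how many plants made up each or whether arrays shared control RNA. In whole roots, fewer cells of a type and less RNA per cell cannot be told apart.

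The 6 arrays lay on 3 slides. Short replicate 1 was on one slide, short replicates 2 and 3 were on another, and all 24 h arrays were on the last. In any comparison between exposures, the slide therefore cannot be told apart from the exposure. Median signals were 337 to 551 in the control channel and 271 to 454 in the treated channel, no spot was saturated, and the number of arrays limits the precision. Log2 ratios over all tested genes correlated at 0.881 to 0.923 among short arrays, at 0.916 to 0.959 among 24 h arrays and at 0.524 to 0.631 between exposures. Calls were widespread over all genes tested, so a call on a single gene was no rare event. After the short exposure 7184 genes were higher and 5669 lower, against 5668 and 7649 with the scanner's own processed signals. At 24 h 7923 were higher and 7257 lower, against 5134 and 8637 with median centring. For the difference 3858 were higher and 5229 lower, against 1909 and 6318 with median centring, which also moved the median difference of all genes from -0.03 to -0.16.

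After the short exposure 6 of the 9 tested gibberellin genes rose and none fell (7 and 0 at an unadjusted p under 0.05, although SLR1 fell too without short replicate 2), where 54.7% of all tested genes passed the same test, 30.6% of them upwards and 24.1% downwards. The threshold was a Benjamini-Hochberg adjusted p of 0.05 in limma over all genes tested. Those that rose were GA20ox1, GA20ox2, GA2ox1, GA2ox3, GA2ox6 and the receptor GID1. GA2ox1 and GA2ox6 passed the filter on dim probes only through treated RNA, their brighter channel. Their place in this count is therefore no support for it, and nor is that of GA2ox1 among the genes lower between exposures. At 24 h 3 genes were higher (GA20ox2, GA2ox3 and GID1) and 3 were lower (GA20ox1, SLR1 and GID2), against 64.6% called in either direction over all genes, 33.7% higher and 30.9% lower. GA20ox2 was counted by its brightest probe, and with the mean of its probes it did not pass at 24 h (0.10, limma, adjusted p = 0.386). Between exposures the ratio fell in 5 genes and rose in none (also 5 and 0 at an unadjusted p under 0.05), with 38.7% called over all genes, 22.3% lower and 16.4% higher. The median log2 ratio of the 9 genes was 0.42 after the short exposure and 0.14 at 24 h, beside 0.02 and 0.02 over all tested genes. Of all 19835 genes above background on all 6 arrays, 11730 were called after the short exposure, 13436 at 24 h and 8262 between exposures. Among the 7 gibberellin genes in that set the counts were 4, 6 and 4, and GA2ox3 was its only deactivation gene. Of the 9 tested gibberellin genes only GA2ox3 was called with a change of at least 2-fold, after the short exposure, at 24 h and between them. Over all tested genes 5.25%, 8.31% and 5.96% were. Short and 24 h values did not overlap in 6 of the genes (GA20ox1, GA2ox1, GA2ox3, GA2ox6, SLR1 and GID2), as in 51.9% of tested genes with all 6 values. GA2ox1 and GA2ox6 were tested only through treated RNA, so their place in this count is no support for it either.

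**Figure D1:**
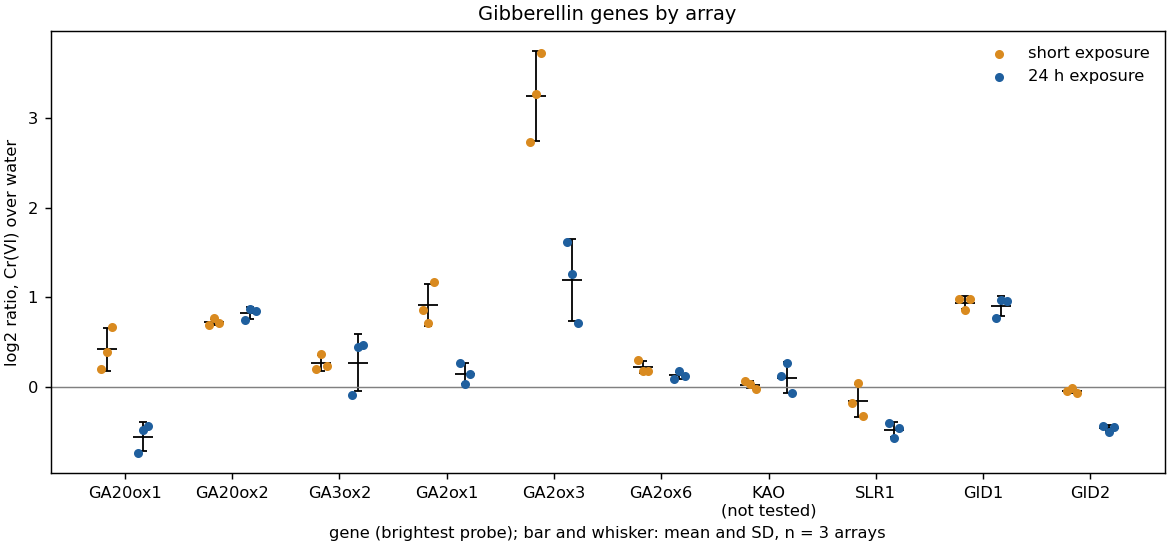
Log2 ratio of Cr(VI) over water on each array for the 10 gibberellin genes, taken from the brightest probe of each; points are arrays, and bars with whiskers are the mean and SD of 3 arrays per exposure. GA2ox3 stands highest on every short array, at 2.73 to 3.74, and the short and 24 h points of GA20ox1 lie on opposite sides of 0.

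The deactivation genes held the largest response. GA2ox3 (Os01g0757200, chromosome 1), a gibberellin 2-oxidase that removes active hormone, had log2 ratios of 2.73, 3.28 and 3.74 on the short arrays and 1.62, 1.26 and 0.71 on the 24 h arrays. Every ratio was above 0, and the lowest short value lay above the highest 24 h value. Its mean was 3.25 ± 0.50 (SD, n = 3) after the short exposure, 9.50-fold higher than in water (limma, adjusted p = 6.23e-06). At 24 h the mean was 1.20 ± 0.46 (SD, n = 3), or 2.29-fold (limma, adjusted p = 0.000826). The difference between exposures was -2.05 with an SE of 0.281 (limma, adjusted p = 0.000827).

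GA2ox3 was read by 5 probes, of which 4 were tested, and all 4 were higher at both exposures. Means of the other tested probes were 2.52 (AB092485), 2.21 (AK060666) and 1.33 (AK099350) after the short exposure and 0.82, 0.96 and 0.75 at 24 h. The probes shared a direction, and their sizes cannot be ranked because control RNA cleared background on 1 of the short arrays for AK060666 and on none for AK099350. The latter passed the filter on dim probes only through treated RNA, so its direction is no support. With a bound on its control signal, treated RNA of AK099350 was 2.43-fold higher after the short exposure. Such bounds set the mean of the bright channel against the lowest signal well above background on each array. The control signal of the probe itself was used where that was higher, and dye bias was not tested. That lowest signal is the smallest level detected on an array, and the spread between arrays is not counted, so these folds are no strict minimum. For AK099350 the difference between exposures was -0.58 and did not pass (limma, adjusted p = 0.0852). The remaining probe, AK101713, was too dim on all arrays to be tested, with means of 0.30 after the short exposure and 0.15 at 24 h.

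GA2ox1 (Os05g0158600, chromosome 5), which encodes another 2-oxidase, had log2 ratios of 0.85, 0.71 and 1.17 after the short exposure and 0.27, 0.03 and 0.14 at 24 h. The exposures did not overlap. Its short mean of 0.91 ± 0.24 (SD, n = 3) passed the test (limma, adjusted p = 7.81e-05), its 24 h mean of 0.14 ± 0.12 (SD, n = 3) did not (limma, adjusted p = 0.188), and the difference was -0.76 with an SE of 0.127 (limma, adjusted p = 0.00214). This was a dim spot: control RNA cleared background on none of the short arrays, and treated RNA was 1.81-fold higher by the same kind of bound. The size depended on how background was removed, with a short mean of 1.37 at a normexp offset of 10 and 2.93 from the scanner's processed signals, where the 24 h mean of 0.74 also passed (limma, adjusted p = 0.0302). With median centring the 24 h mean was 0.32 and passed too (limma, adjusted p = 0.028). Its second probe, AK120967, was too dim on all arrays to be tested.

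GA2ox6 (Os04g0522500, chromosome 4), of the 2-oxidase class that acts on precursors, had log2 ratios of 0.29, 0.17 and 0.17 on the short arrays and 0.09, 0.17 and 0.12 at 24 h. The groups lay side by side, with the lowest short value just above the highest 24 h value. Its short mean of 0.21 ± 0.07 (SD, n = 3) passed (limma, adjusted p = 0.0111), with control RNA clear of background on none of the short arrays and treated RNA on 2 of them. Median centring ended the call (0.15, limma, adjusted p = 0.278), as did leaving out short replicate 1 (0.17, limma, adjusted p = 0.0677). With short replicate 1 alone the value was 0.29 (limma, adjusted p = 0.084), in a test whose spread comes only from the 24 h arrays. The scanner's processed signals gave 0.74 (limma, adjusted p = 0.00961). At 24 h its mean of 0.13 ± 0.04 (SD, n = 3) did not pass (limma, adjusted p = 0.0743). It did pass with median centring, at 0.31 (limma, adjusted p = 0.0171), and with a normexp offset of 10, at 0.25 (limma, adjusted p = 0.0167). With slide as a random block it passed too (limma, adjusted p = 0.042). The correlation of that block was negative, at -0.11, which makes the test less strict. Calls over all genes at 24 h rose with it from 15180 to 16341.

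**Figure D2:**
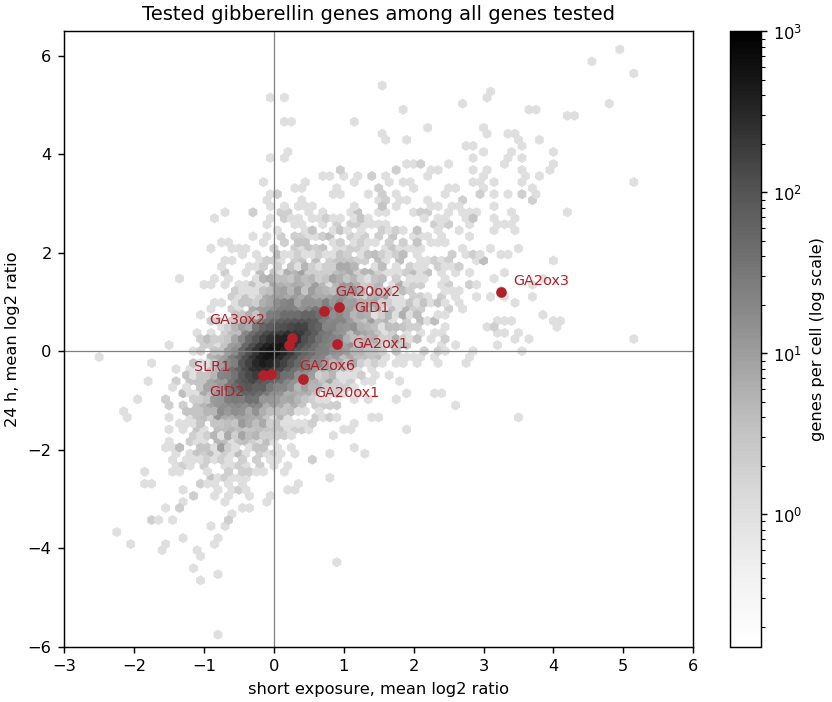
Mean log2 ratio after the short exposure (horizontal axis) against 24 h (vertical axis) for all 23490 tested genes, as cells shaded by gene number on a log scale, with the 9 tested gibberellin genes as labelled points. GA2ox3 lies far to the right at 3.25 and 1.20, and GA20ox1 is the point at 0.42 and -0.56.

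The synthesis genes did not move as a block. GA20ox1 (Os03g0856700, chromosome 3), which encodes a gibberellin 20-oxidase that forms the direct precursor of the active hormone, had log2 ratios of 0.19, 0.38 and 0.67 after the short exposure and -0.75, -0.49 and -0.45 at 24 h. All short values were above 0 and all 24 h values below it. Its mean rose by 0.42 ± 0.24 (SD, n = 3; limma, adjusted p = 0.00651) after the short exposure and fell by 0.56 at 24 h (SD 0.16, n = 3; limma, adjusted p = 0.000979). The difference between exposures was -0.98 with an SE of 0.136 (limma, adjusted p = 0.00089).

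All 3 probes of GA20ox1 gave that pattern, from 0.38 to 0.44 after the short exposure and from -0.64 to -0.56 at 24 h, with each value called. Over all tested genes 2.75% were higher after the short exposure and lower at 24 h, and GA20ox1 was the only gibberellin gene in that class. The early rise missed the threshold with the scanner's processed signals (0.44, limma, adjusted p = 0.0555). Short replicate 1, alone on its slide, gave 0.19 (limma, adjusted p = 0.321), in a test whose spread comes only from the 24 h arrays.

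GA20ox2 (Os01g0883800, chromosome 1), the 20-oxidase gene known as the semidwarf locus of rice breeding, was higher at both exposures by its brightest probe, a pattern held by 20.1% of all tested genes. This probe, CI260266, derives from an expressed sequence tag in the 3'UTR. It had log2 ratios of 0.69, 0.76 and 0.72 after the short exposure and 0.75, 0.87 and 0.85 at 24 h, and the exposures overlapped. Its means were 0.72 ± 0.04 (SD, n = 3; limma, adjusted p = 1.9e-05) and 0.82 ± 0.06 (SD, n = 3; limma, adjusted p = 4.65e-06), and the difference of 0.10 did not pass (limma, adjusted p = 0.357).

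The 5 probes of GA20ox2 fell into unlike patterns at 24 h. A second tag probe in the 3'UTR, BD187781, read 0.68, 0.72 and 0.70 after the short exposure and 0.44, 0.78 and 0.82 at 24 h, close to the brightest probe. The coding-sequence probe AY114310, from an mRNA, read 1.28, 0.65 and 1.54 and then -0.63, -0.16 and -0.38. Every short value of AY114310 was high and every 24 h value was below 0. Its short mean was 1.15 ± 0.46 (SD, n = 3; limma over probes, adjusted p = 0.000401), its 24 h mean was -0.39 ± 0.24 (SD, n = 3; limma over probes, adjusted p = 0.0539), and the difference was -1.54 with an SE of 0.218 (limma over probes, adjusted p = 0.000965).

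The other coding-sequence probe of GA20ox2, AB077025, read 1.29, 0.48 and 1.37 after the short exposure and -0.33, -0.15 and -0.22 at 24 h. A further tag probe in the 3'UTR, CI002357, read 0.60, 0.41 and 1.17 and then -0.54, -0.22 and -0.40. Differences between exposures were -1.28 for AB077025 and -1.11 for CI002357 (limma over probes, adjusted p = 0.00205 and 0.00206). All 5 probes were higher after the short exposure, whereas at 24 h 2 were higher, 1 was lower and 2 did not pass. Over loci with at least 2 tested probes, 3.74% were called in both directions at 24 h, and over those with at least 5 it was 9.75%.

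The gap between AY114310 and CI260266 was 0.43 ± 0.49 (SD, n = 3) on the short arrays and -1.21 ± 0.18 (SD, n = 3) at 24 h, a change of -1.64. The 3 gaps at 24 h were all below those of the short arrays (two-sided exact permutation p = 0.1, the smallest that 20 splits allow). This pair was chosen after its values were seen. With the mean of all 5 probes, GA20ox2 was 0.87 after the short exposure and 0.10 at 24 h, where it was no longer called (limma, adjusted p = 0.386), and its difference became -0.77 (limma, adjusted p = 0.00289). The direction of GA20ox2 at 24 h therefore depends on the probe that is read. In control RNA of the short arrays, CI260266 and BD187781 averaged quantile-normalized log2 intensities of 12.55 and 12.44. The other probes averaged 8.62 (AY114310), 8.61 (AB077025) and 6.94 (CI002357). Whether all of them read the same transcript was not tested.

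**Figure D3:**
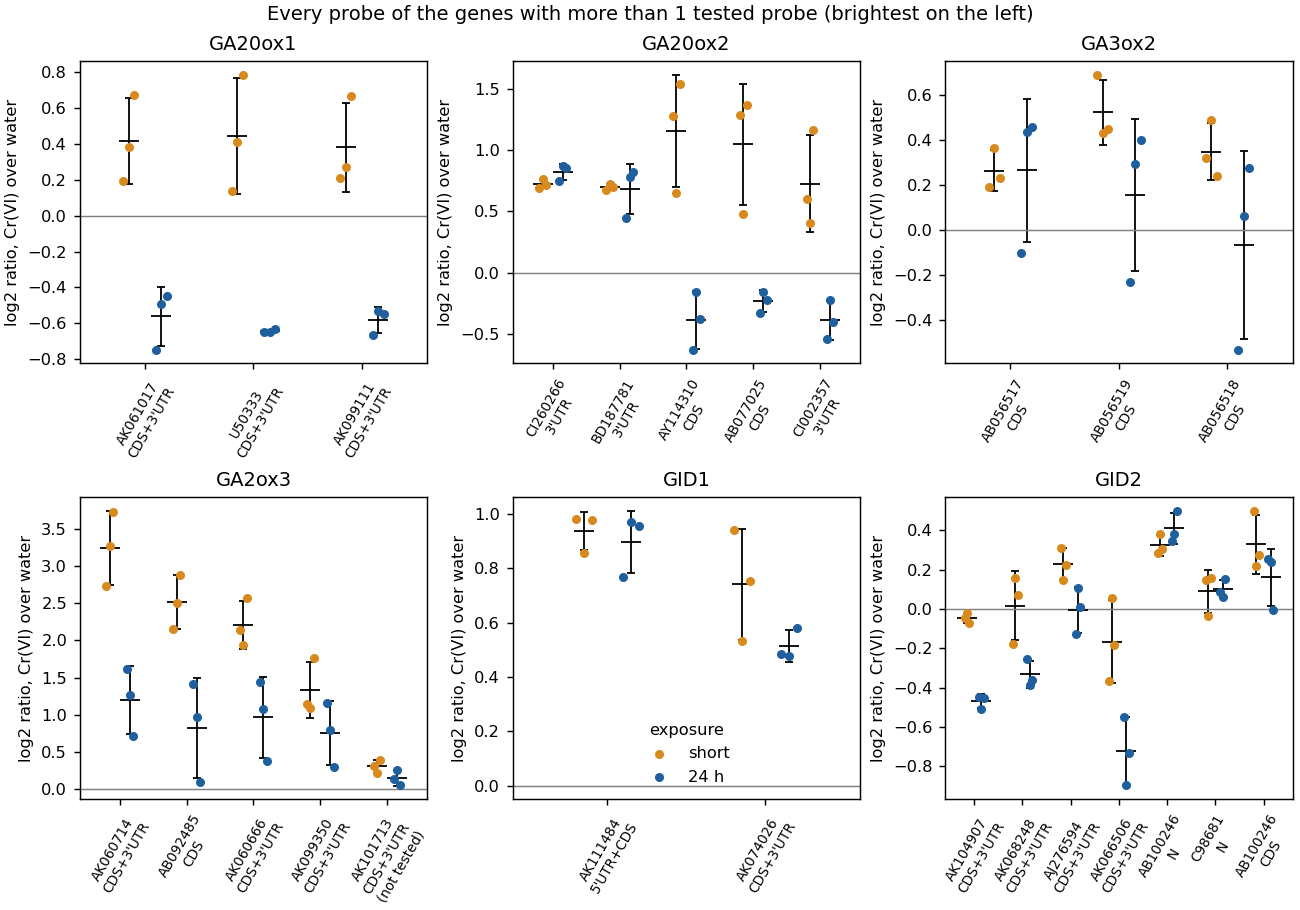
Log2 ratio of Cr(VI) over water on each array for every probe of the genes shown, with probes along the horizontal axis named by accession and transcript region; points are arrays of the short exposure or of 24 h. For GA20ox2 the 24 h points lie between 0.44 and 0.87 in CI260266 and BD187781 and below 0 in the other probes, and the GID2 probes spread to both sides of 0 at 24 h.

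GA3ox2 (Os01g0177400, chromosome 1), the 3-oxidase gene of the final step to active hormone, had log2 ratios of 0.19, 0.37 and 0.23 after the short exposure and -0.10, 0.44 and 0.46 at 24 h. The exposures overlapped. Means were 0.26 ± 0.09 (SD, n = 3; limma, adjusted p = 0.0621) and 0.27 ± 0.32 (SD, n = 3; limma, adjusted p = 0.0536), so neither passed. Of its 3 probes, AB056519 passed after the short exposure, at 0.52 (limma over probes, adjusted p = 0.00532), and none passed at 24 h or between exposures. The brightest probe passed at both exposures without long replicate 1, at 0.26 and 0.45 (limma, adjusted p = 0.00805 and 0.00168), with slide as a random block (limma, adjusted p = 0.043 and 0.0267) and with a trended robust variance prior (limma, adjusted p = 0.046 and 0.0393). The slide block had a negative correlation, at -0.11, which makes that test less strict. With the mean of its 3 probes GA3ox2 passed after the short exposure, at 0.38 (limma, adjusted p = 0.0221). KAO (Os06g0110000, chromosome 6), which encodes the oxidase of an early step from kaurenoic acid, was too dim to test: treated RNA was well above background on 2 of the 24 h arrays, control RNA on 1, and neither on a short array.

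The receptor gene GID1 (Os05g0407500, chromosome 5) was higher by nearly the same amount at both exposures. Its log2 ratios were 0.98, 0.86 and 0.98 after the short exposure and 0.77, 0.97 and 0.96 at 24 h, and the exposures overlapped. The means were 0.94 ± 0.07 (SD, n = 3; limma, adjusted p = 1.02e-05) and 0.90 ± 0.11 (SD, n = 3; limma, adjusted p = 6.44e-06), and the difference of -0.04 did not pass (limma, adjusted p = 0.762). Its second probe, AK074026, was higher too, by 0.74 after the short exposure and 0.51 at 24 h (limma over probes, adjusted p = 0.000116 and 0.000512).

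SLR1 (Os03g0707600, chromosome 3), the DELLA protein gene that represses the gibberellin response, had log2 ratios of -0.19, 0.04 and -0.33 after the short exposure and -0.41, -0.57 and -0.47 at 24 h. The 24 h values all lay below the short values. The short mean of -0.16 ± 0.19 (SD, n = 3) did not pass (limma, adjusted p = 0.112). It was -0.26 and passed without short replicate 2 (limma, adjusted p = 0.0257), and it was -0.074 without short replicate 3 (limma, adjusted p = 0.525). At 24 h the ratio fell by 0.48 (SD 0.08, n = 3; limma, adjusted p = 0.000638). The difference of -0.32 with an SE of 0.108 passed narrowly (limma, adjusted p = 0.0442). It was lost under several alternatives, among them the scanner's processed signals, at -0.23 (limma, adjusted p = 0.315), and the omission of any single array other than short replicate 3.

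GID2 (Os02g0580300, chromosome 2), the F-box gene through which SLR1 is degraded, had log2 ratios of -0.05, -0.02 and -0.07 after the short exposure and -0.45, -0.51 and -0.45 at 24 h. Both groups were tight and did not overlap. The short mean of -0.05 ± 0.03 (SD, n = 3) did not pass (limma, adjusted p = 0.471), the 24 h ratio fell by 0.47 (SD 0.03, n = 3; limma, adjusted p = 8.13e-05), and the difference was -0.42 with an SE of 0.0733 (limma, adjusted p = 0.00267). With short replicate 1 alone against 24 h the difference kept its size, at -0.42 (limma, adjusted p = 0.0531), in a test whose spread comes only from the 24 h arrays.

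GID2 was read by 7 probes, which did not share a direction at 24 h. After the short exposure 3 of them were higher, AJ276594 at 0.23 and the AB100246 probes at 0.32 and 0.33 (limma over probes, adjusted p = 0.0176, 0.00181 and 0.00738), and none was lower. AK104907, AK068248 and AK066506 were lower, at -0.47, -0.33 and -0.72, a probe from AB100246 with no transcript region in its name was higher, at 0.41 (limma over probes, adjusted p = 0.00032), and the other 3 lay between -0.01 and 0.16 and did not pass. Of 38 loci with at least 7 tested probes, 6 (15.8%) were called in both directions at 24 h. The gap between that AB100246 probe and AK104907, a pair chosen after its values were seen, was 0.37 ± 0.04 (SD, n = 3) on the short arrays and 0.88 ± 0.08 (SD, n = 3) at 24 h (two-sided exact permutation p = 0.1, the smallest possible). With the mean of all 7 probes, GID2 at 24 h shrank to -0.12 and was still called, but only at the edge of the threshold (limma, adjusted p = 0.05 after rounding).

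Across all members, 20 of the 27 tested probes were higher after the short exposure and none was lower (22 and 0 at an unadjusted p under 0.05), where 54.2% of all tested probes were called, 29.7% higher and 24.5% lower. At 24 h 9 were higher and 8 lower, with 64.9% called over all probes, 32.5% higher and 32.4% lower. Between exposures 14 were lower and none was higher (16 and 0 at an unadjusted p under 0.05), with 39.9% called over all probes, 23.7% lower and 16.2% higher. The tested probes of GA2ox1 and GA2ox6 and the AK099350 probe of GA2ox3 passed the filter on dim probes only through treated RNA. Their place in these counts is therefore no support for them. Probes of a gene share its locus and are not replicates.

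The change in a ratio between exposures can arise in treated roots or in the water controls, so each channel was compared on its own. Channels were normalized separately by quantiles, and their differences need not subtract to the ratio. In the control channel none of the 9 tested genes passed at an adjusted p of 0.05 in limma (2 did at an unadjusted p under 0.05, both lower at 24 h), where 3.52% of all tested genes did. In the treated channel GA20ox1, GA2ox1 and GA2ox3 had less signal in the 24 h arrays and no gene had more (4 and 0 at an unadjusted p under 0.05). Over all tested genes 36.5% were called in that channel, 14.0% lower and 22.6% higher. GA2ox1 passed the filter on dim probes only through this channel, so its place in the count is no support for it.

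For GA2ox3 the log2 intensity of treated RNA averaged 12.55 after the short exposure and 10.32 at 24 h, a difference of -2.24 with an SE of 0.276 (limma, adjusted p = 0.000686). Its control RNA averaged 9.72 and 9.50, a difference of -0.22 (limma, adjusted p = 0.488). GA20ox1 in treated RNA averaged 9.21 and 7.92, a difference of -1.29 (limma, adjusted p = 0.00239). Its control RNA averaged 9.21 and 8.75, and this difference of -0.46 did not pass (limma, adjusted p = 0.1), though without short replicate 1 it was -0.60 and passed (limma, adjusted p = 0.0171). The other GA20ox1 probes, U50333 and AK099111, differed by -1.20 and -0.73 in treated RNA (limma over probes, adjusted p = 0.000438 and 0.0456). In control RNA they differed by -0.24 and 0.12, and neither passed (limma over probes, adjusted p = 0.22 and 0.681). GA2ox1 differed by -0.69 in treated RNA (limma, adjusted p = 0.00557), the channel through which alone it passed the filter on dim probes.

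The AY114310 probe of GA20ox2 averaged 9.39 and 8.10 in treated RNA, a difference of -1.29 (limma over probes, adjusted p = 0.00218), against 8.62 and 8.77 in control RNA (limma over probes, adjusted p = 0.46). The brightest GA20ox2 probe differed by 0.31 in treated RNA and 0.14 in control RNA, neither of which passed (limma, adjusted p = 0.334 and 0.742). The brightest GID1 probe differed by -0.83 in treated RNA and -0.81 in control RNA, and neither passed (limma, adjusted p = 0.0602 and 0.103). Its second probe, AK074026, differed by 0.10 and 0.31, and neither passed (limma over probes, adjusted p = 0.759 and 0.238). SLR1 differed by -0.25 in treated RNA and 0.01 in control RNA, and neither passed (limma, adjusted p = 0.223 and 0.979).

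**Figure D4:**
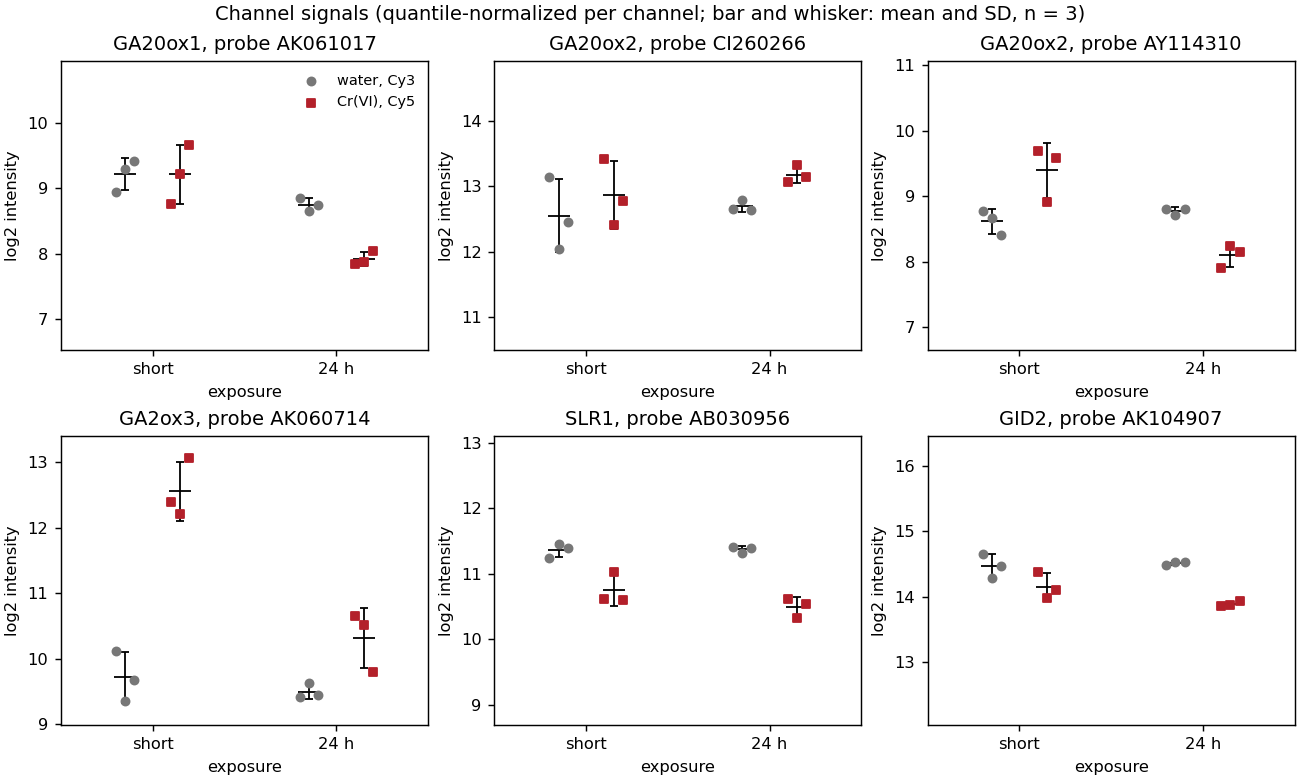
Quantile-normalized log2 intensity of control and treated RNA on each array, by exposure, for selected gibberellin probes; each panel spans the same number of log2 units. In the GA2ox3 panel treated RNA drops from a mean of 12.55 to 10.32 while control RNA averages 9.72 and 9.50.

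The genes whose 6 log2 ratios lay closest to those of GA2ox3 and GID1, the members with the largest root mean square ratios at 2.48 and 0.92, were sought among all tested genes. For GA2ox3 these were Os01g0760000, at a root mean square distance of 0.182 with means of 3.09 and 1.13, and Os05g0454500, at 0.302 with means of 3.28 and 1.12. For GID1 they were Os02g0116700 at 0.0685 and Os09g0504700 at 0.0818. These loci were not annotated in the table used here, and each likeness rests on 6 arrays.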

How the data were processed

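The authors deposited one Agilent Feature Extraction file per array, holding spot intensity in both channels, and a table of log2 ratios per probe. Per the file headers, Feature Extraction 10.7.1.1 subtracted background and normalized dyes for its processed signal intensity. The deposited log2 values were used as an alternative. Here limma 3.58.1 in R 4.3.3 corrected the median signals by normexp (offset 50) and normalized within arrays by loess, with control and outlier spots at weight 0. A locus was read by its brightest probe (a probe without a locus counted as a gene of its own) and tested when at least 3 of 6 arrays had it well above background in a channel, with at least 2 values per exposure. Both exposures shared a group-means model (4 residual and 4.36 prior degrees of freedom), with Benjamini-Hochberg adjustment over 23490 genes. Each probe was also tested among 33257 probes. Channels were compared after normexp and quantile normalization. The fits were run on simulated arrays with known changes, equal at both exposures, and independent noise. Slide effects and dye effects specific to a probe were not simulated, so that run cannot speak to them. P-values measure only the spread between these arrays.

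The members and lists were chosen with earlier results of these data known. All members were to be named, with the 2 genes most alike to each of the 2 members of largest ratio. Alternatives covered background, normalization, filter, probe choice, variance prior, slide, replicate number and omitted arrays. The reference table (assembly ASM3414082v1) matched 0 of 29689 loci and 0 of 40830 accessions, so the wider list of gibberellin genes, root and leaf markers, and gene sequences were not analysed here.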

Additional observations from a re-analysis of the deposited data

Results flagged for a closer look

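Several gibberellin genes passed the test of the difference between exposures itself (24 h minus short, log2 ratio, limma with Benjamini-Hochberg adjustment). GA2ox3 differed by -2.05, GA20ox1 by -0.98 and GA2ox1 by -0.76, each with non-overlapping exposures on 3 arrays against 3. GA2ox1 passed the filter on dim probes only through treated RNA, so its place here is no support. GID2 differed by -0.42 and SLR1 by -0.32, and the SLR1 call was lost under most omissions of a single array. Of the 7 GID2 probes 3 were called lower between exposures and none higher, and their mean differed by -0.23 (limma, adjusted p = 0.0259). Within GA20ox2, probes AY114310, AB077025 and CI002357 differed by -1.54, -1.28 and -1.11, whereas the brightest probe differed by 0.10. Exposure and slide cannot be told apart in these values. Groups of 3 arrays were not screened for outlying samples.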

How the results depend on the processing

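No called value of a member changed direction under the alternatives tried, except GA20ox2 at 24 h. It became -0.39, its difference -1.54 and its treated channel -1.29 when the brightest probe tagged as mRNA was read, an alternative chosen after seeing the data. The count of called members was 1 in the control channel with 75th percentile scaling (GA2ox6) and 3 for the difference without the short arrays on slide 2. With one array omitted in turn, called members ranged from 5 to 7 (short), 6 to 7 (24 h), 4 to 5 (difference), 0 to 1 (control channel) and 3 to 4 (treated channel). Over all genes the calls ranged from 9665 to 12621 (short), 12220 to 15036 (24 h) and 6637 to 8027 (difference).

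Values of uncalled results that changed sign were as follows. The scanner's processed signals gave -0.26 for the GA3ox2 difference and -0.17 for SLR1 in the control channel. Median centring gave 0.13 for GID2 after the short exposure, and -0.16, -0.089 and 0.17 for the differences of GA20ox2, GA3ox2 and GA2ox6. The mean of all probes gave 0.11 for GID2 after the short exposure, and -0.77 and -0.26 for the differences of GA20ox2 and GA3ox2. Scaling to the 75th percentile gave -0.42 for GA2ox1 in the control channel, and slide as a random block gave -0.0015 for the GA3ox2 difference. Without the short arrays on slide 2, GA20ox2 was -0.45 and GID2 -0.14 in the control channel, and GA20ox2 was -0.24 in the treated channel. With one array omitted, the GA3ox2 difference ranged from -0.10 to 0.18, the GID1 difference from -0.080 to 0.027, and GA3ox2 in the treated channel from -0.27 to 0.025. In the control channel SLR1 ranged from -0.054 to 0.051, GA20ox2 from -0.11 to 0.44 and GID2 from -0.050 to 0.13. The causes were not tested.

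Over all genes, 826 passed in the control channel, against 29 with processed signals, 3099 with 75th percentile scaling, 426 with the replicate block, 112 without the short arrays on slide 2 and 0 with slide as a random block (limma; 2737 at an unadjusted p under 0.05). With one array omitted that count ranged from 0 (without short replicate 3 or long replicate 1, where 4494 and 3793 passed at an unadjusted p under 0.05) to 4985 (without short replicate 1), and each omission moved it by over 1.5 times. In the treated channel 8584 passed, against 5089 with the slide block, 5614 without the short arrays on slide 2 and 5526 (without long replicate 2) to 10206 with one array omitted. Without the short arrays on slide 2, 6312 genes passed after the short exposure in place of 12853, and 4527 for the difference in place of 9087.

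Arrays of the same number did not deviate together (correlations -0.24, -0.12 and -0.10), so the numbers were not taken to pair them. With the replicate block 4 members passed for the difference, 0 in the control channel and 3 in the treated channel. Over all 23490 genes 7494, 426 and 6840 did. With replicate number as a random block 6 members passed at each exposure, beside 12835 (short) and 15161 (24 h) of all genes. The correlation of that random block was -0.17. The call lost with the replicate block was the SLR1 difference (limma, adjusted p = 0.0825). Values of KAO, GA2ox1 and GA2ox6 are limited by signal over background. Alternatives for the wider gibberellin list were not run, since its loci were not annotated.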
